A study of Mus musculus with 2 samples.

Results

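miR-871, miR-878, miR-880 and miR-881 are 4 neighbouring X-linked miRNA hairpins that are known mainly from male germ cells. Their 8 mature miRNAs, the 5p and the 3p arm of each hairpin, were taken by name from counts of 1905 mature miRNAs in mouse testis. All 8 were found. The rule is by name, but it was set with earlier results of these data known. sncRNA-Seq was performed on testes of C57BL/6 mice (C57BL/6J in the methods of the study) at postnatal day 60, with 1 library from control mice and 1 from mice exposed to a mixture of EDCs. Exposed mice received DEHP, DBP and BBP (phthalates, 0.3 mg per kg of body weight and day each) and NP and OP (alkylphenols, 0.05 mg per kg and day each) in the drinking water, first through the mother from conception to weaning and then directly. Control mice drank water with the vehicles, DMSO and ethanol, over the same period. Each library was made from a pool of RNA in equal amounts (n = 3 treated mothers per group, with their male offspring), so the spread between mice cannot be seen, and there is no replicate check on any difference below. The libraries held 550261 reads of mature miRNAs in control and 501539 in exposed mice.

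A miRNA hairpin is cut out of a long transcript by Drosha and then opened by Dicer, which leaves a short duplex of its 5p and 3p arms. An Argonaute protein keeps mostly one of these arms, and bases 2 to 8 of that arm, the seed, pair with target mRNAs. The X-linked miRNAs between Slitrk2 and Fmr1 evolve fast and are known from spermatogonia, spermatocytes and spermatids, and several of them were described as transcribed in meiosis, when most of the X chromosome is silent. Some hairpins of the locus, such as miR-463 and miR-471, have also been described in Sertoli cells, the somatic cells that nurse the germ cells.

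The mature sequences are shown because the seeds set which mRNAs each arm can pair with. They come from RefSeq (GRCm38, the assembly called mm10), run 5′ to 3′ and have the seed in capitals.
mmu-miR-871-5p: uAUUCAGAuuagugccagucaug
mmu-miR-871-3p: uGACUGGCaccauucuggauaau
mmu-miR-878-5p: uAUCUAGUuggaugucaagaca
mmu-miR-878-3p: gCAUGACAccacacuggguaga
mmu-miR-880-5p: uACUCAGAuugauaugaguca
mmu-miR-880-3p: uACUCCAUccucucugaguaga
mmu-miR-881-5p: cAGAGAGAuaacagucacaucu
mmu-miR-881-3p: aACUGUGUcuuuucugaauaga
No seed was shared within these 8 miRNAs. Among the 1621 mature miRNAs of the files that had a RefSeq sequence, only miR-743a-5p shared a seed with any of them, the seed of miR-871-5p.
mmu-miR-743a-5p: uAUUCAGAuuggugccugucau
These sequences differed by an edit distance of 3, the smallest distance of any of the 8 to another mature sequence. For the other 7 the smallest distance was between 5 and 8, with 5 for miR-878-3p against miR-743a-3p. Reads were aligned with up to 3 mismatches, so a read of miR-871-5p with sequencing errors could be placed at miR-743a-5p or the reverse.

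The 4 hairpins lie on the minus strand of chromosome X in mm10, and none of them overlaps another gene of GENCODE M21. miR-880 (chrX:66800530-66800607), miR-878 (chrX:66801508-66801585) and miR-881 (chrX:66801944-66802021) lie within 1492 bases of each other, and miR-871 (chrX:66810428-66810504) follows after a gap of 8406 bases. The nearest hairpins on either side are miR-463, 1232 bases from miR-880, and miR-470, 3446 bases from miR-871. The hairpins are shown with their mature arms in capitals, because the arms are the units that were counted.
miR-871: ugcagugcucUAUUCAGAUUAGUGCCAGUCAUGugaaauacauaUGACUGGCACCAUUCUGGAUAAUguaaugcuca
miR-878: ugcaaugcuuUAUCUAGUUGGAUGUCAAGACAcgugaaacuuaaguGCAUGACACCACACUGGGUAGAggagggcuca
miR-880: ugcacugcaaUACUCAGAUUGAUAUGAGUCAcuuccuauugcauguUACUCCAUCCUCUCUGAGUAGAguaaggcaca
miR-881: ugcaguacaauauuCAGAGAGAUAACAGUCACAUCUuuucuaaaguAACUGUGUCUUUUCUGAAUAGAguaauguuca
All 4 hairpins begin with the bases UGCA, as do 12 of the 1005 hairpins in the RefSeq table (1.19%). The mature 3p arms of miR-878, miR-880 and miR-881 end in UAGA, and 12 of 709 mature 3p sequences do so (1.69%), while miR-871-3p does not. The bases AUUCAGA stand at base 12 of both miR-871 and miR-881, where they are the seed of miR-871-5p. The annotated miR-881-5p starts later, at base 15, whereas the other 5p arms start at base 11, so these bases are not its seed. Aligned over their whole length, the 4 hairpins were between 54.4% (miR-878 and miR-881) and 69.2% (miR-880 and miR-881) identical, against a median of 46.0% with the 63 hairpins of chromosome 1. miR-871 and miR-878 were most alike to a hairpin outside the 4, miR-743b (74.0% and 65.4%), whereas miR-880 and miR-881 were most alike to each other.

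The 4 hairpins together took 8.67% of all mature miRNA reads in control mice (95% interval 8.59 to 8.74, exact Clopper-Pearson) and 8.29% in exposed mice (8.22 to 8.37). miR-881 gave 57.7% of these reads in control and 56.7% in exposed mice, miR-871 24.4% and 29.1%, miR-880 9.01% and 7.27%, and miR-878 8.91% and 6.91%. They made up 38.5% of the reads of 40 listed X-linked germ cell miRNAs in control mice and 38.0% in exposed mice. That list, in turn, held 22.5% and 21.8% of all reads. Reads shared by miR-465 copies can count more than once, which would raise this share and lower that of the members within the list. All intervals are for counting error alone, and PCR copies are counted as if independent, with molecular identifiers named nowhere in the sources.

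By arm, levels ranged over 4 orders of magnitude. miR-881-3p had 27409 control reads (4.98%) and 23470 from exposed mice (4.68%) and was the third most abundant mature miRNA of the testis in both libraries. miR-871-3p had 10179 reads (1.85%) and 10811 (2.16%), at rank 14 and 13. miR-880-3p had 4297 reads (0.781%) and 3021 (0.602%), at rank 34 and 37. These 3 arms stood above the other members in both libraries, in this order, with no overlap of intervals.

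The next 3 arms lay close together. miR-878-3p had 2316 control reads (0.421%, interval 0.404 to 0.438) and 1318 from exposed mice (0.263%, 0.249 to 0.277). miR-878-5p had 1936 reads (0.352%, 0.336 to 0.368) and 1556 (0.310%, 0.295 to 0.326), and miR-871-5p had 1446 (0.263%, 0.249 to 0.277) and 1307 (0.261%, 0.247 to 0.275). In control mice the 3 were separate and miR-878-3p led. In exposed mice miR-878-5p led, and miR-878-3p and miR-871-5p could not be told apart.

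The remaining arms were rare. miR-881-5p was counted 118 times in control (0.0214%) and 108 times in exposed mice (0.0215%). miR-880-5p had 2 and 3 reads, a share of at most 0.00131% and 0.00175% by the upper bound of its interval, and its level was not measurable at this depth.

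**Figure D1:**
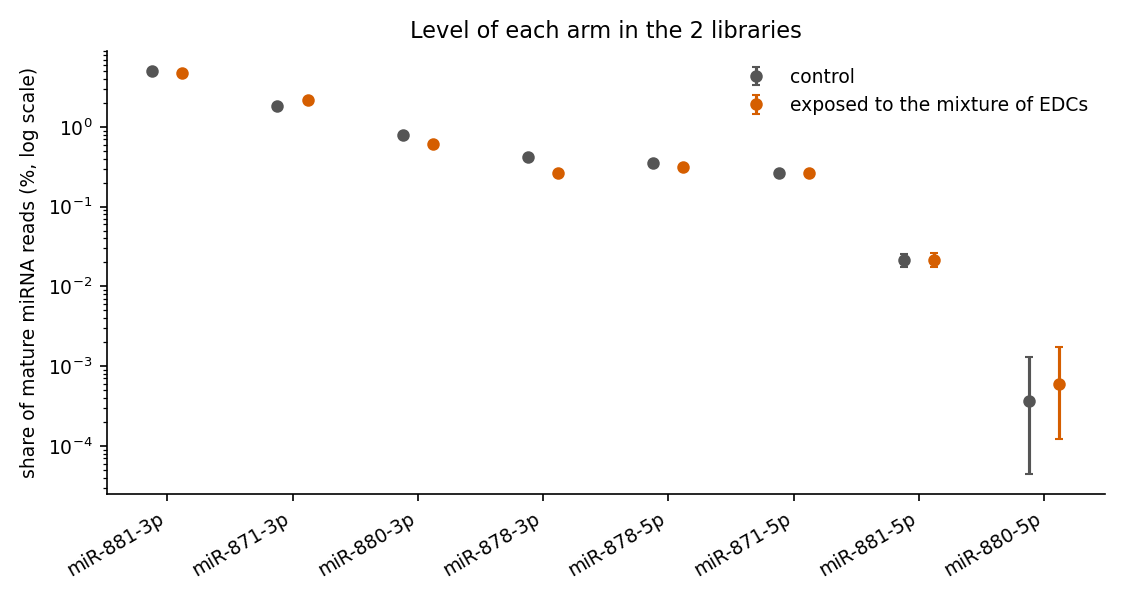
Share of mature miRNA reads (in percent, log scale) of the 8 arms in the control library (grey) and the library of exposed mice (orange), with exact 95% intervals of counting error. miR-881-3p is highest in both libraries (4.98% and 4.68%), and miR-880-5p is lowest, with 2 and 3 reads.

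The libraries were then compared to ask whether the level of each arm differed after exposure. Scaling used median of ratios size factors (1.07 for control, 0.937 for exposed mice). The reads of an arm were split between the libraries in a 2-sided exact binomial test, and Benjamini-Hochberg adjustment ran over all 484 miRNAs that had 10 or more reads over both libraries. "Rose" and "fell" mean an adjusted p under 0.05 together with a log2 ratio (exposed over control) of 0.5 or more in size. The test compares the reads of these 2 libraries and not the conditions, and in a pool of whole testis, fewer cells of a type and less RNA per cell cannot be told apart. Of the 8 arms 7 could be tested. miR-878-3p fell, none rose, and over all 484 miRNAs 2.27% fell and 0.620% rose. At an adjusted p under 0.05 and any size, 1 of the 7 was higher and 3 were lower, where 8.26% of all tested miRNAs were higher and 9.30% lower. These shares are not matched in depth. The tested miRNAs had a median of 65.5 control reads, and most of the 7 arms had far more. At such depth a small ratio passes, as for miR-881-3p at −0.04. The median log2 ratio of the 7 was −0.04, the same as over all tested miRNAs (−0.04).

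miR-878-3p went from 2171 to 1406 normalised reads, 1.54-fold lower (log2 ratio −0.63, with −0.73 to −0.53 as interval, and adjusted p = 1.12e-35, exact binomial test). miR-878-5p, cut from the same hairpin, went from 1815 to 1660 normalised reads (log2 ratio −0.13, −0.23 to −0.03, adjusted p = 0.0507 from the same exact test), just short of the threshold, and it passed at any size with scaling by total reads (0.00181, exact test). With both arms summed, an alternative added after the values were seen, the reads of the hairpin went from 4252 to 2874, a log2 ratio of −0.38 (−0.45 to −0.31) that lies under the size minimum. miR-878-3p was thus called by arm but not by hairpin.

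miR-871-3p was the only arm that was higher at any size. It went from 9542 to 11533 normalised reads, 1.21 times the control level (interval 1.18 to 1.24, log2 ratio 0.27, 0.23 to 0.31, adjusted p = 4.91e-41, exact binomial test). Its partner miR-871-5p had 1355 and 1394 normalised reads (log2 ratio 0.04, −0.07 to 0.15), and with scaling by total reads the sign of this value turned (−0.01).

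miR-880-3p was lower at any size, going from 4028 to 3223 normalised reads (log2 ratio −0.32, −0.39 to −0.25, adjusted p = 8.66e-20, exact binomial test). The log2 ratio of miR-881-3p was −0.04 (−0.06 to −0.01), from 25693 to 25038 normalised reads. At the depth of this arm a ratio so near 1 had an adjusted p of 0.0237 in the exact test, and with scaling by TMM the value was −0.01 with an adjusted p of 0.767 (exact test). miR-881-5p, with 111 and 115 normalised reads, had a wide interval around 0.06 (−0.33 to 0.45).

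All p above rest on counting error alone. edgeR's exact test adds a dispersion, here common to both libraries and estimated as if they were replicates. Under it, miR-878-3p was called at an unadjusted p of 0.0102 and not at an adjusted p (0.956). No miRNA of the 484 passed at an adjusted p under 0.05, and 18 had an unadjusted p of at most 0.05.

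**Figure D2:**
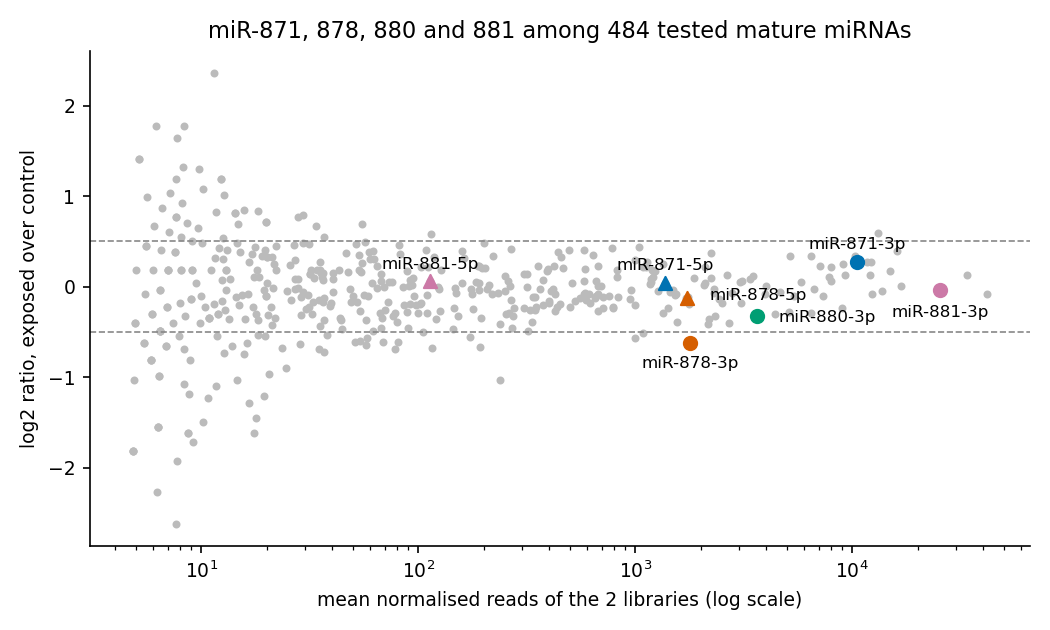
Log2 ratio of exposed to control mice against mean normalised reads (log scale) for the 484 tested mature miRNAs (grey), with 3p arms of the 4 hairpins as circles, 5p arms as triangles and the size minimum of 0.5 as dashed lines. miR-878-3p (−0.63) is the only one of the 7 tested arms outside the lines.

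Ratios between arms within a library do not depend on the scaling of the libraries, so they were computed for the 15 pairs of the 6 arms with over 1000 reads. The interval of the change between libraries left out 1 in 13 of 15 pairs. The 15 pairs reuse 6 arms and are not separate observations. At over 1000 reads an interval leaves out 1 for small shifts, and pairs of other miRNAs were not counted. miR-871-3p had 4.40 times the reads of miR-878-3p in control and 8.20 times in exposed mice, a change of 1.87 (interval 1.73 to 2.01). It had 2.37 and 3.58 times those of miR-880-3p, a change of 1.51 (1.43 to 1.59). The ratio of miR-880-3p to miR-881-3p changed by 0.821 (0.781 to 0.863), although these hairpins lie within 1492 bases. The 2 pairs whose intervals held 1 were those of miR-881-3p with miR-871-5p (0.947, 0.877 to 1.02) and with miR-878-5p (1.07, 0.994 to 1.14). The 3p arms of these neighbours thus did not keep 1 common ratio between the libraries, beyond counting error. Whether this is particular to them was not tested.

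Arm use was read as the 3p share of the 5p and 3p reads of a hairpin. In miR-880 and miR-881 nearly all reads came from the 3p arm. For miR-880 the 3p share was 99.95% in control (interval 99.83 to 99.99) and 99.90% in exposed mice (99.71 to 99.98), and for miR-881 it was 99.57% (99.49 to 99.65) and 99.54% (99.45 to 99.62). For miR-871 the 3p arm also led, but the 5p arm was well measured, with 7.04 reads of the 3p arm for each read of the 5p arm in control and 8.27 in exposed mice. Its 3p share was 87.6% (86.9 to 88.2) and 89.2% (88.6 to 89.8).

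miR-878 used both arms about equally, and the leading arm differed between the libraries. The 3p share was 54.5% in control (53.0 to 56.0) and 45.9% in exposed mice (44.0 to 47.7), so that the intervals lay on opposite sides of 50%. This change of −8.61 percentage points was the ninth largest in size among the 169 hairpins with at least 50 reads in each library, whose median change in size was 0.936 points. Hairpins read almost wholly from a single arm, such as miR-880 and miR-881, can hardly move in points, and they lower this median. Of these 169, 15 had a 3p share between 40% and 60% in control mice. Some of these 15 moved further than miR-878, as did miR-466c (41.5% to 30.2%) and miR-471 (50.4% to 60.0%). Others moved less, as did miR-463 (54.3% to 56.2%) and miR-434 (45.9% in both libraries). Of the 169, 3 had a different leading arm in the libraries, namely miR-878, miR-7216 and miR-7242 (all these examples were named after their values were seen). The adjusted p of the last 2 in Fisher's exact test was 0.486 and 0.647.

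The change in arm use was tested with Fisher's exact test over all 276 hairpins with 10 or more reads over both arms and libraries, adjusted by Benjamini-Hochberg, and called at an adjusted p under 0.05 and a log2 odds ratio of at least 0.5 in size. None of the 4 hairpins was called, where 2.54% of all were, and 2 of the 4 passed at any size, where 4.35% of all did. These shares are not matched in depth, and hairpins with many reads of both arms pass at smaller changes. miR-878 had a log2 odds ratio of −0.50 (−0.64 to −0.36, adjusted p = 4.72e-11 from Fisher's exact test), a value of −0.498 that misses the size minimum in the third decimal. miR-871 moved the other way, with 0.23 (0.12 to 0.35, adjusted p = 0.00195 from Fisher's exact test). For miR-881 the log2 odds ratio was −0.10 (−0.49 to 0.29), and for miR-880 the few 5p reads leave an interval from −4.68 to 2.03. The scaling of the libraries cancels in an odds ratio.

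**Figure D3:**
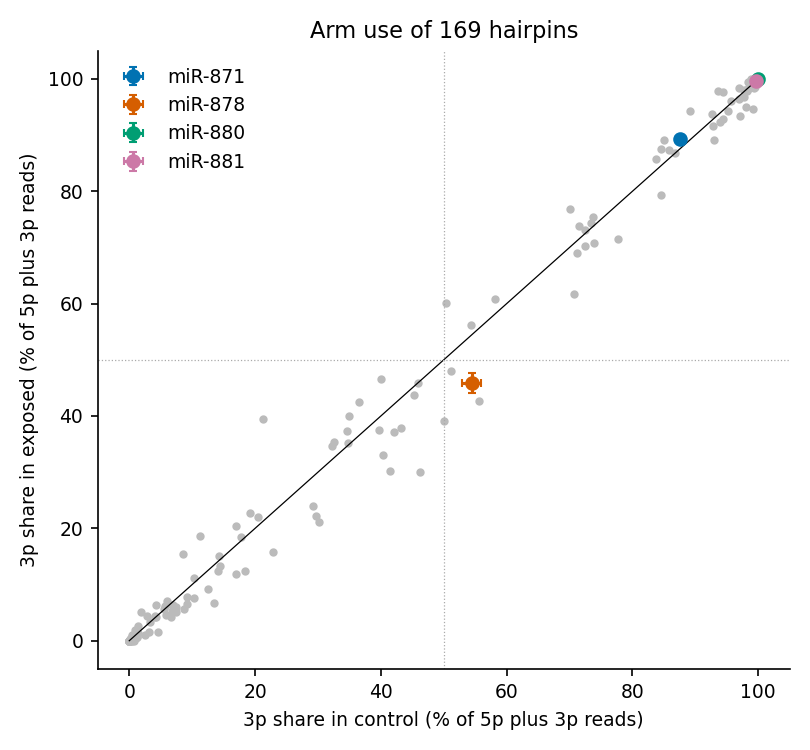
3p share of the reads of a hairpin in control (x axis) and exposed mice (y axis), in percent, for the 169 hairpins with at least 50 reads in each library (grey), with exact 95% intervals for the 4 hairpins. miR-878 (54.5% and 45.9%) lies below the diagonal of equal shares and crosses 50%, while miR-880 and miR-881 overlap near 100%.

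The first base of an arm is a known correlate of arm choice, since Argonaute proteins favour U or A at that place. Of the 134 hairpins of this depth with both sequences in RefSeq, the leading arm in control mice began with U in 58.2%, A in 23.1%, C in 11.2% and G in 7.46%. The minor arm began with U in 27.6%, A in 23.9%, C in 30.6% and G in 17.9%, so that A was about as frequent in both. In miR-881 the leading 3p arm begins with A and the 5p arm with C. In miR-871 and miR-880 both arms begin with U. In miR-878 the 5p arm begins with U and the 3p arm with G, and of the 4 this hairpin had the most even use of its arms. Its 3p arm, with G, led in control mice (54.5%) and its 5p arm, with U, led in exposed mice (3p share 45.9%). With 4 hairpins this is a description only.

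The rest of the X-linked locus was read alongside. Of the 40 listed mature miRNAs, 32 are not members, and 29 of these had enough reads to be tested. Of these 29, miR-465a-3p fell (log2 ratio −0.52), none rose, and at any size 6 were higher and 6 lower, with a median of −0.04. By arm, the 15 tested 3p arms among them had 1 higher and 5 lower (median −0.16), and the 14 tested 5p arms had 5 higher and 1 lower (median 0.12). Over all tested miRNAs, 12 of 234 3p arms were higher at any size and 20 lower (median −0.05). Of 230 5p arms, 28 were higher and 23 lower (median −0.02). These counts are not matched in depth, and many of the X-linked arms had far more reads than the median tested miRNA (65.5 in control). miR-465a-3p, miR-465b-3p and miR-465c-3p, 3 of the 5 lower 3p arms, have the same mature sequence, so the source of such reads is uncertain. All best alignments were kept and no read was set aside as not unique, so the same read can be counted at each copy. Their 1368, 2625 and 2635 control reads are thus not separate counts, and these arms are not separate observations. The hairpins next to the members had mixed values. miR-463-5p, on the side of miR-880, was at −0.27 (−0.47 to −0.08) and miR-463-3p at −0.16 (−0.34 to 0.02). miR-470-5p, on the side of miR-871, was at 0.12 (0.09 to 0.16) and miR-470-3p at −0.27 (−0.85 to 0.30). miR-743a-5p, with the seed of miR-871-5p, went from 455 to 531 reads (0.41, 0.23 to 0.59, adjusted p = 9.65e-05, exact binomial, under the size minimum).

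**Figure D4:**
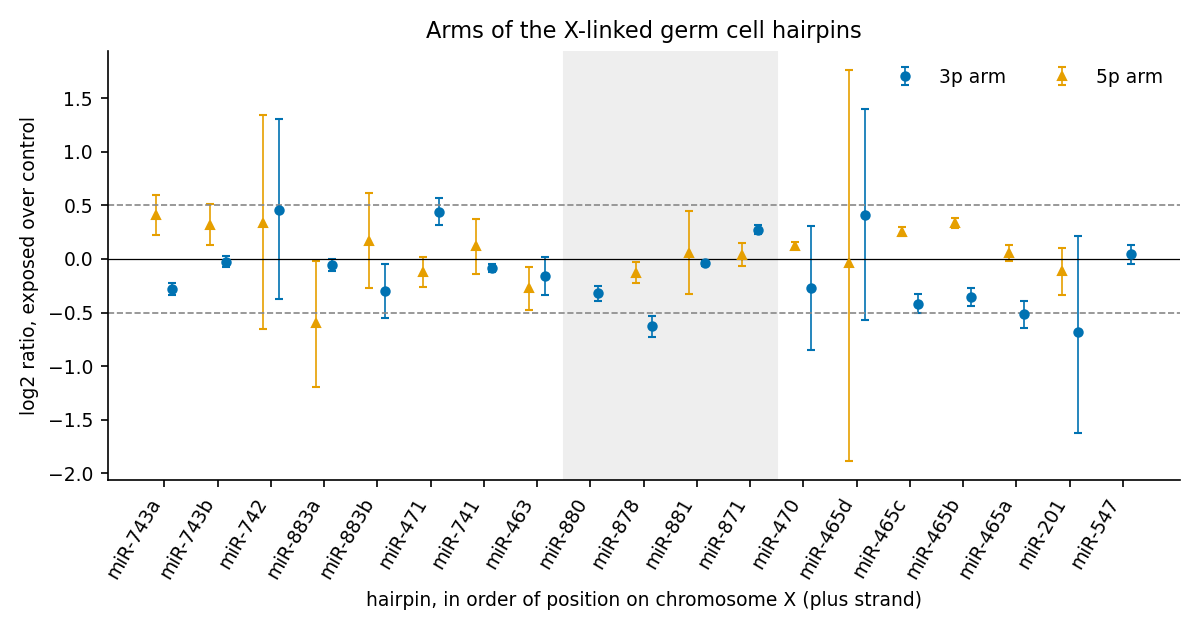
Log2 ratio of exposed to control mice with exact 95% intervals for the tested 3p arms (blue circles) and 5p arms (orange triangles) of X-linked hairpins in order of position; miR-465b and miR-465c have copies that alternate and are drawn once. The shaded members run from −0.63 (miR-878-3p) to 0.27 (miR-871-3p), and dashed lines mark the size minimum of 0.5.

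Arm use changed in several hairpins around the members. Of the 15 other X-linked hairpins tested, 5 were called and 6 passed at any size, beside 7 called of all 276 (2.54%) and 12 at any size (4.35%). These shares are not matched in depth either. The 3p share fell in miR-465a (log2 odds ratio −0.57), miR-465b (−0.69), miR-465c (−0.67) and miR-743a (−0.69) and rose in miR-471 (0.56). miR-878 had the same sign as the first 4 and miR-871 that of miR-471. The miR-465 hairpins yield 1 and the same mature 3p sequence and are not separate observations.

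By level over both libraries, the mature miRNAs nearest to miR-871-3p were let-7f-5p and miR-26a-5p (distances of 0.08 and 0.08 over 2 log2 values of normalised reads). Those nearest to miR-880-3p were miR-29a-3p (0.26) and let-7b-5p (0.31), to miR-878-3p miR-181a-5p (0.31) and miR-17-5p (0.31), and to miR-881-3p miR-143-3p (0.59) and miR-99a-5p (0.84). With 2 libraries such nearness says only that the levels were alike. Markers of the cells in a testis were read as well. Of 9 tested markers of 10, at any size 3 lay higher and 3 lower, and 1 fell. Over all 484 tested miRNAs 8.26% were higher and 9.30% lower at any size, and 2.27% fell, shares that are not matched in depth. The germ cell miRNA miR-34c-5p was at −0.08 (−0.10 to −0.06) and miR-449a-5p at 0.01 (−0.06 to 0.07). miR-34b-5p, of the same family as miR-34c-5p and not on the marker list, rose from 11198 to 14881 reads (log2 ratio 0.60, adjusted p = 5.60e-240, exact test), and it is named after its value was seen. The other arm of that hairpin, miR-34b-3p, went from 2529 to 2109 reads, and the 3p share of the hairpin went from 18.4% to 12.4%. miR-202-5p of Sertoli and other somatic gonad cells was at 0.21 (0.12 to 0.30), miR-143-3p of smooth muscle at 0.13, miR-145a-5p of the same cells at 0.00 and miR-126a-3p of endothelium at −0.18. miR-451a of red blood cells, with 100 and 116 reads, was at 0.40 (0.002 to 0.80, adjusted p = 0.175, exact binomial test) and did not pass at any size. Of the striated muscle miRNAs miR-1a-3p was at 0.43 (0.28 to 0.57) and miR-133a-3p at −0.69 (−1.19 to −0.21), the one that fell. The liver miRNA miR-122-5p had 0 and 1 reads. The part of such shifts in the values of the 8 arms was not tested.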

How the data were processed

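Small RNA of pooled mouse testes was sequenced by the authors on a MiSeq (single-end, 65 nucleotides), with 1 library per group. The authors checked reads with FastQC, trimmed them with cutadapt, discarded those under 12 nucleotides, aligned the rest to mm10 with bowtie (up to 3 mismatches, all best alignments) and counted them with HTSeq on miRBase v21; their versions are not stated here. The deposited values are whole read counts per mature miRNA, not normalised. A line of ambiguous reads (0.528% of control and 0.515% of exposed reads) names no miRNA and was left out. Counts belong to annotated arms, whatever the exact ends of a read.

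Levels are shares of all mature miRNA reads with Clopper-Pearson intervals. Libraries were compared with an exact binomial test after median of ratios scaling (the scaling of DESeq, used by the authors), arms with Fisher's exact test, each over all features with 10 or more reads over both libraries. A tested miRNA had a median of 65.5 reads in control and 56 in exposed mice. An arm with 100 reads in each library has a log2 interval of ±0.415, with 1000 reads ±0.128. Named were all 8 members, the 2 nearest miRNAs in level to each 3p arm, neighbouring hairpins, called X-linked miRNAs, seed partners and cell type markers. Members and lists were chosen with earlier results of these data known. Hairpin identity is from a global alignment (match 1, mismatch 0, affine gap penalties). All 8 members matched RefSeq sequences. The methods were tested on simulated Poisson counts with no spread between mice or libraries, so that test covers counting error alone. Python 3.11.15, scipy 1.17.1, biopython 1.88, R 4.3.3 and edgeR 4.0.16 were used. Alternatives were other scalings, read and size minimums, a pseudocount, other denominators and edgeR's exact test. Precursors and isomiRs were not analysed here.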

Additional observations from a re-analysis of the deposited data

How the results depend on the processing

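Of the 8 arms, miR-878-3p had a log2 ratio of −0.68 to −0.60 under the alternatives that keep the arms apart. Its adjusted p ran from 1.05e-41 (exact binomial test) to 0.956 (edgeR's exact test). Its call was lost with a size minimum of 1.0, with the arms summed (log2 ratio −0.38) and at an adjusted p in edgeR's exact test (the last 2 added after seeing the data). miR-871-5p turned to −0.0121 with scaling by total reads. The log2 ratio of miR-871-3p ran from 0.22 to 0.30 and that of miR-880-3p from −0.37 to −0.29. Read and size minimums leave a ratio unchanged, a pseudocount hardly moves one at this depth, and both edgeR settings share 1 ratio. Each scaling shifts all ratios alike, by −0.05 to 0.03, which is too little to turn the sign of these 3p arms. That their direction was kept is therefore no support for it. The adjusted p of miR-878-5p fell under 0.05 with scaling by total reads, by total reads less the 10 leading miRNAs and with a minimum of 50 reads (0.00181, 0.00952 and 0.0348, exact test).  The count of called miRNAs, 14 of 484, was 5 with a size minimum of 1.0, 85 with none, 0 with edgeR at an adjusted p (16 when taken at an unadjusted p) and 8 of 276 with arms summed. Scaling by total reads gave 3 higher and 17 lower, and TMM 4 and 9. The count of hairpins with changed arm use, 7 of 276, was 0 with a size minimum of 1.0 and 12 with none, and with none miR-878 and miR-871 passed. All reads of the 4 hairpins came to 13.9 in control and 13.5 in exposed mice for each 100 reads of the miRNAs outside the 10 most abundant. This is a ratio and not a share, since miR-881-3p is itself among those 10. The scalings moved all log2 ratios by −0.05 to 0.03. No paired analysis was possible because each group has 1 library. At 2 and 3 reads miR-880-5p is set by depth.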
